A study of Mus with 16 samples.

Results

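The 10 immediate early genes described here are *Fos*, *Fosb*, *Junb*, *Jun*, *Egr1*, *Egr2*, *Arc*, *Npas4*, *Nr4a1*, and *Ier2*. They were picked out by their Ensembl identifiers from the 54219 genes of the count table, and all 10 were among the 17866 genes that passed the filter on low counts. The counts come from bulk mRNA-seq of the forebrain, cortex together with hippocampus, of 16 mice at postnatal day 6 (P6). There were 4 animals in each of 4 groups: wild-type (WT) males, hemizygous mutant males (*Kdm5c*-KO), WT females, and heterozygous mutant females (*Kdm5c*-HET). *Kdm5c* is an X-linked gene for a histone lysine demethylase, and its KO allele, a deletion made with Cre, was kept on a mixed C57BL/6J and 129S1/SvImJ background that mutants and WT animals share. Each sample title also carries the letter D or E, whose meaning the sources used here do not give. The methods state that the animals came from 3 litters but not which animal from which, so a litter and the letter cannot be told apart here. The letter D marks 3 males and 2 females of the WT groups, 2 *Kdm5c*-KO males, and 1 *Kdm5c*-HET female, and the letter E marks the other 8 animals. The labels thus put 1 letter E animal among the WT males and 1 letter D animal among the *Kdm5c*-HET females.

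Immediate early genes are transcribed within minutes of a stimulus, without the need for new protein synthesis. In neurons, calcium entry and growth factor signals reach their promoters through kinases that act on factors such as CREB and SRF. Most of them code for transcription factors that start a later wave of genes, and *Arc* codes for a protein that acts at the synapse. The RNAs are short-lived, so their levels are widely used as a readout of recent neuronal activity, and they also respond to handling and stress.

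Sequencing depth, as the sum of an animal's counts, lay between 21513783 and 30063352. It was 22750335 to 30063352 in the 8 letter D animals and 21513783 to 27833185 in the 8 letter E animals. The forebrain marker *Emx1* was present in every animal, at 27.4 to 41.0 CPM (counts scaled to the library size after TMM normalization), and most of the fixed forebrain markers could not be named. In bulk tissue, fewer cells of a type and less RNA per cell cannot be told apart. Across the 10 genes, the counts behind a value ranged from 7 to 52 for *Fosb*, 36 to 96 for *Egr2*, and 72 to 144 for *Fos*, and were at least 98 for every other member in every animal. Levels are compared between animals and not between genes, because the counts are not scaled to transcript length.

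Every member was detected in all 16 animals, but the members differed in how much they varied. *Jun*, an AP-1 subunit, ranged only from 49.9 to 59.8 CPM over the 16 animals, and its standard deviation within groups, 0.07 on the log2 CPM scale, lay at the 17.2nd percentile of all genes tested. *Fosb*, another AP-1 subunit, ranged from 0.283 to 2.33 CPM, with a within-group standard deviation of 0.55 at the 91.7th percentile. It is also the member with the fewest counts. *Npas4* (0.39), *Arc* (0.36), *Egr2* (0.29), *Egr1* (0.24), *Fos* (0.24), and *Junb* (0.23) were all above the median within-group standard deviation of 0.14, whereas *Ier2* (0.15) and *Nr4a1* (0.13) were close to it.

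**Figure D1:**
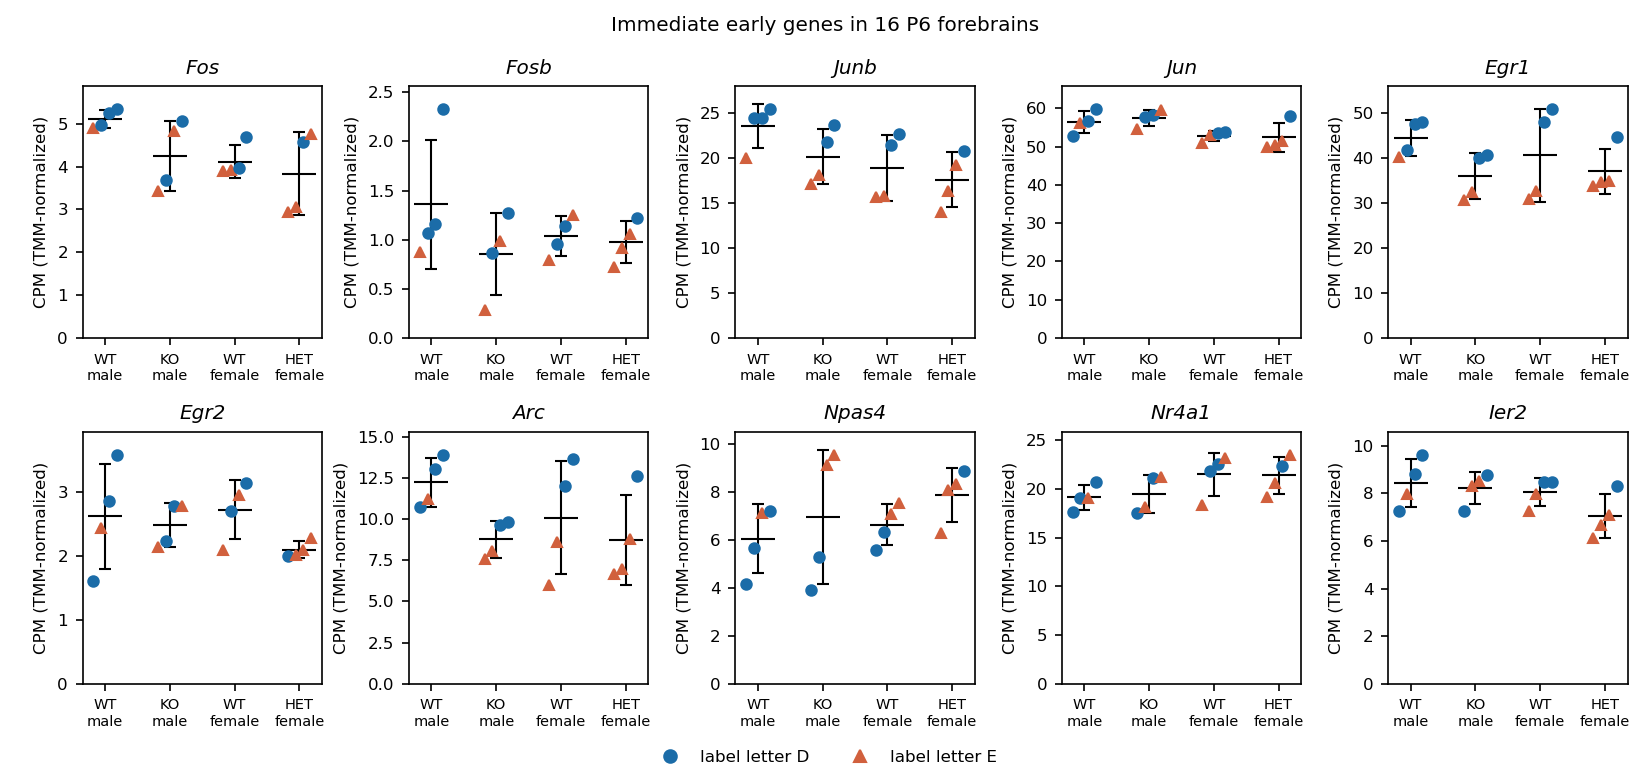
CPM (TMM-normalized, axis from 0) of each immediate early gene in 16 animals by group. Points are animals, blue circles for letter D and orange triangles for letter E, ordered by value within a group, and the bars are the mean ± SD of 4 animals. In *Junb*, *Egr1*, and *Arc* the letter E animals lie at the low end of each group, except for *Arc* in WT males, whereas *Nr4a1* shows no such order.

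Of the comparisons described here, the letter of the sample title gave the largest number of members that passed the test. With letter fitted beside the 4 group means, 3 members fell and 1 rose in letter E animals, so that 4 of 10 passed an adjusted p-value (q) under 0.1 in the quasi-likelihood test of edgeR, Benjamini-Hochberg adjusted over all genes tested. Of all genes tested, 23.6% passed for the letter, 12% lower and 11.6% higher in E. The members' median log2 fold change was -0.14 against 0.01 over all genes, with 9 members below 0 and 1 above.

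*Egr1* (ENSMUSG00000038418, chromosome 18, 34861207 to 34864956, mm10), a zinc-finger transcription factor induced by growth factors and neuronal activity, ranged from 39.9 to 50.9 CPM in letter D animals (median 46.1, mean 45.2 ± 4.02, SD, n = 8). In letter E animals it ranged from 30.6 to 40.2 CPM (median 33.2, mean 33.8 ± 3.04, SD, n = 8). In 7 of the 8 letter E animals it was below the lowest letter D animal, and the exception was the only letter E WT male, 1E. The share of all genes with at least such an order was not computed. The fitted log2 difference was -0.40 (SE 0.05, edgeR q = 9.70e-06), which means that *Egr1* fell by 24.3%.

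*Junb* (ENSMUSG00000052837, chromosome 8, 84976909 to 84978748), an AP-1 subunit that restrains *Jun* in many settings, ranged from 20.8 to 25.5 CPM in letter D animals (median 23.2, mean 23.1 ± 1.66, SD, n = 8) and from 14.0 to 20.0 CPM in letter E animals (median 16.7, mean 17.0 ± 2.01, SD, n = 8). Every letter E animal was below every letter D animal. Of all genes tested, 2.01% had such an order. The fitted log2 difference was -0.38 (SE 0.06, edgeR q = 6.68e-05), and it fell by 23.2%.

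*Arc* (ENSMUSG00000022602, chromosome 15, 74669081 to 74672570), whose protein controls the removal of glutamate receptors from synapses, ranged from 9.62 to 13.9 CPM in letter D animals (median 12.3, mean 11.9 ± 1.68, SD, n = 8). It ranged from 6.00 to 11.2 CPM in letter E animals (median 7.82, mean 7.98 ± 1.62, SD, n = 8). Again 7 of 8 letter E animals were below the lowest letter D animal, with WT male 1E as the exception, and no share over all genes was computed. The fitted log2 difference was -0.52 (SE 0.10, edgeR q = 0.000935), and the level fell by 30.1%.

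*Npas4* (ENSMUSG00000045903, chromosome 19, 4984353 to 5003439), a neuron-specific transcription factor that responds to calcium entry and shapes inhibitory synapses, moved the other way. It was 3.90 to 8.85 CPM in letter D animals (median 5.61) and 6.27 to 9.54 CPM in letter E animals (median 7.79), and the letters overlapped. The fitted log2 difference was 0.38 (SE 0.14, edgeR q = 0.0665). This call depended on single animals. It was lost in 7 of the 16 fits that left out an animal (WT male 1E, each of the 4 *Kdm5c*-KO males, and WT females 3D and 5E), with q up to 0.177 without *Kdm5c*-KO male 6D. In the *Kdm5c*-KO males, *Npas4* was 5.28 and 3.90 CPM in the letter D animals 4D and 6D against 9.54 and 9.10 CPM in the letter E animals 2E and 3E. In *Kdm5c*-HET females the order was the opposite, with 8.85 CPM in 9D, the letter D animal, and 6.27, 8.33, and 8.05 CPM in 6E, 8E, and 9E.

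The remaining 6 members did not pass the test for the letter. *Fosb* had a log2 difference of -0.46 (95% interval -0.99 to 0.07, edgeR q = 0.238), a width that goes with its 7 to 52 counts. *Fos*, the AP-1 subunit most used to mark active neurons, had -0.16 (-0.40 to 0.09, q = 0.416), *Ier2* -0.12 (-0.28 to 0.05, q = 0.355), *Egr2* -0.08 (-0.40 to 0.24, q = 0.775), *Jun* -0.06 (-0.14 to 0.01, q = 0.249), and *Nr4a1* -0.04 (-0.17 to 0.10, q = 0.747). For *Jun*, *Nr4a1*, and *Ier2* the intervals leave out a change of the size fitted for *Egr1*. Within each of the 4 groups, the letter E mean of *Fos*, *Fosb*, *Junb*, *Jun*, *Egr1*, and *Arc* was below the letter D mean, an order seen in 15.4% of all genes tested, although WT males hold 1 letter E animal and *Kdm5c*-HET females 1 letter D animal.

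**Figure D2:**
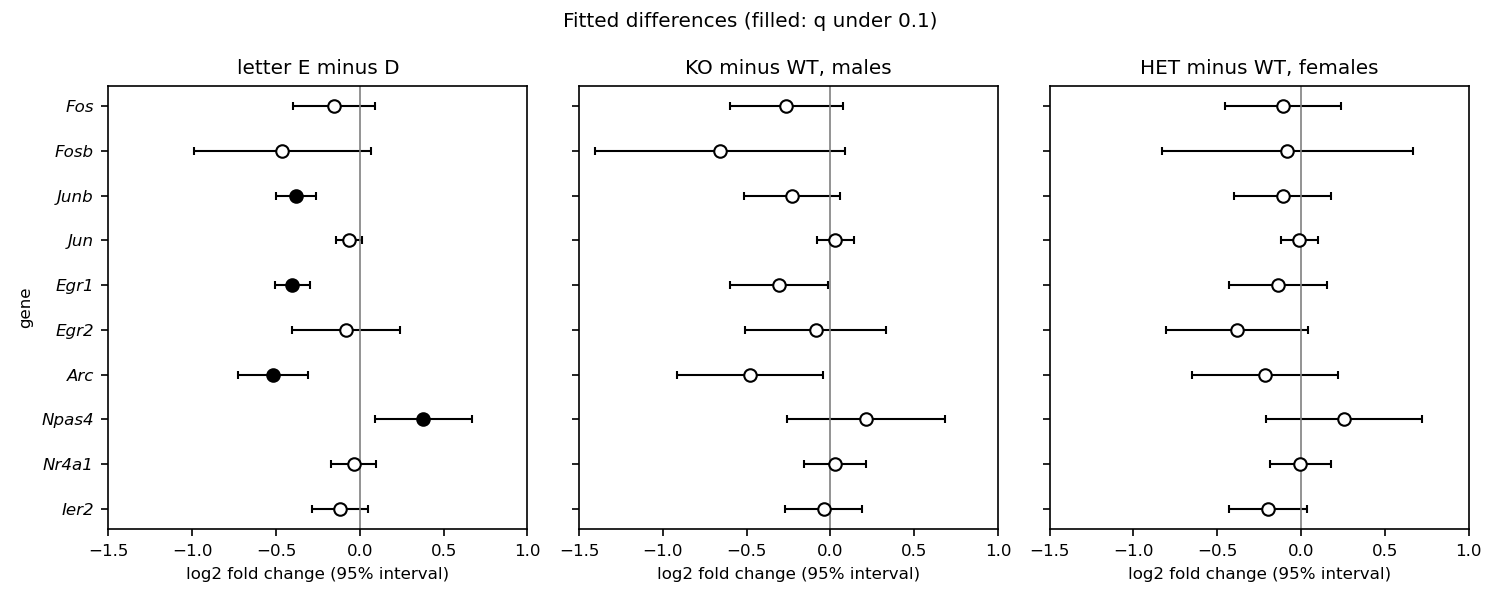
Log2 fold changes (x axis) with 95% intervals from edgeR's fit over all 16 animals, for letter E minus letter D, *Kdm5c*-KO minus WT males, and *Kdm5c*-HET minus WT females. Filled points passed q under 0.1, and these are *Junb*, *Egr1*, *Arc*, and *Npas4* for the letter and no member for the genotypes.

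Letter accounted for most of the within-group variance of some of these genes. Fitting it removed 81.3% of the within-group variance of log2 CPM for *Egr1*, 78.7% for *Junb*, and 61.3% for *Arc*, against a median of 13.8% over all genes tested. The residual standard deviation of *Egr1* dropped from 0.24 to 0.11, and that of *Junb* from 0.23 to 0.11, below the median of all genes with letter in the fit (0.13). *Npas4* lost 31.7%, *Fosb* 24.0%, *Jun* 23.6%, *Ier2* 16.4%, and *Fos* 13.4%. For *Nr4a1* (2.70%) and *Egr2* (1.54%) the letter took almost nothing away.

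**Figure D3:**
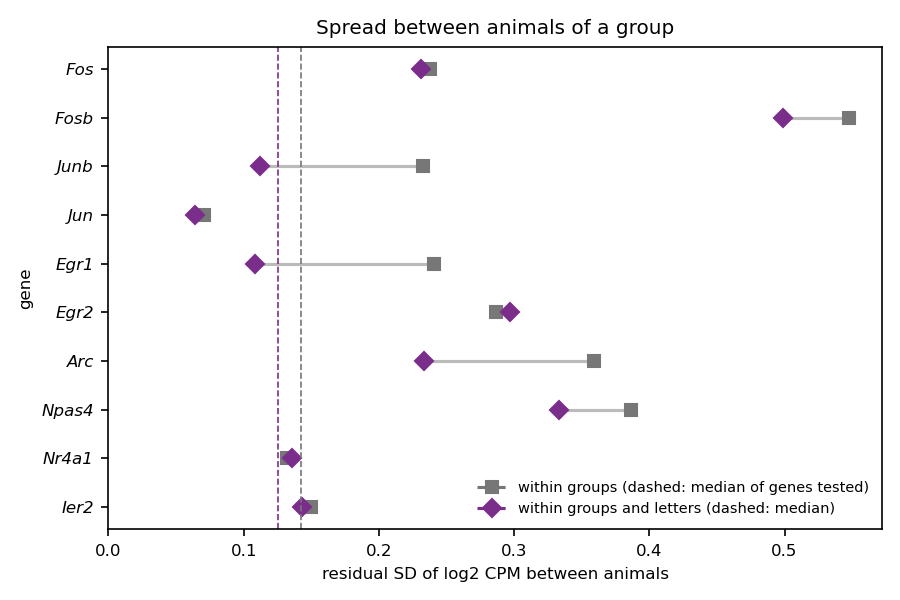
Residual SD of log2 CPM between animals (x axis) for each member within groups (grey squares) and within groups with letter fitted (purple diamonds), with dashed lines at the medians of all genes tested, 0.14 and 0.13. *Egr1* and *Junb* move from above the grey line to below the purple one, and *Arc* also shifts far to the left.

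The letter difference was also set against sex, in a test added after the data were seen. The E minus D difference of *Arc* was -0.79 in females (edgeR q = 0.000297) and -0.24 in males (q = 0.227), that of *Egr1* -0.52 and -0.28 (q = 5.49e-05 and 0.00758), and that of *Junb* -0.42 and -0.34 (q = 0.0027 and 0.0104). *Npas4* differed by 0.06 in females (q = 0.892) and 0.73 in males (q = 0.0116). No member passed the test of the difference between the sexes (edgeR q = 0.506 for *Arc*, 0.624 for *Egr1*, 0.617 for *Npas4*, and 0.913 for *Junb*), and 0.0112% of all genes did. Without adjustment, p in this edgeR test was 0.00434 for *Arc*, 0.013 for *Npas4*, and 0.014 for *Egr1*. For the other members it lay between 0.159 (*Ier2*) and 0.956 (*Egr2*). The share of all genes with an unadjusted p under 0.05 was not computed for this test. The unadjusted values thus have no background to be read against.

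Markers of other cells also moved with the letter. Of the fixed marker lists, 1 of 7 astrocyte genes, 2 of 8 choroid plexus genes, and 4 of 5 erythroid genes could be named, so the lists are mostly unseen. The names come from the study's list of genes changed in these samples, so a genotype or sex difference of a marker named here and below is partly fixed by that choice and is not independent evidence. The astrocyte channel gene *Aqp4* was 142 to 170 CPM in letter D and 120 to 152 CPM in letter E animals (log2 difference -0.20, edgeR q = 0.000214). The choroid plexus genes *Ttr* (0.669 to 202 against 0.277 to 84.5 CPM, -3.19, q = 0.091) and *Aqp1* (0.614 to 3.60 against 0.323 to 2.06 CPM, -1.28, q = 0.00447) were lower in letter E as well. No erythroid gene passed for the letter. Their part in the difference of *Egr1*, *Junb*, *Arc*, and *Npas4* was not tested.

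In *Kdm5c*-KO males, which lack the only copy of the gene, no member passed the test against WT males in the fit with the 4 group means, which is the fit of the study's design (0 of 10, against 5.24% of all genes tested). DESeq2 gave 0 as well. At an unadjusted p under 0.05 there were 2 members, *Egr1* and *Arc*, both lower, against 16.5% of all genes. The fitted log2 fold changes ranged from -0.66 to 0.21 with a median of -0.16, where the median over all genes was -0.01, and 7 members were below 0.

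Among the AP-1 subunits, *Fos* (ENSMUSG00000021250, chromosome 12, 85473890 to 85477274) was 5.34, 4.96, 5.24, and 4.89 CPM in WT males 2D, 5D, 7D, and 1E, and 3.68, 5.06, 3.43, and 4.83 CPM in *Kdm5c*-KO males 4D, 6D, 2E, and 3E. The groups overlapped, and the WT males lay close together (5.11 ± 0.22 against 4.25 ± 0.81, SD, n = 4). The log2 fold change was -0.26 (SE 0.16, edgeR q = 0.452).

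*Fosb* (ENSMUSG00000003545, chromosome 7, 19302696 to 19310118) was 1.16, 1.07, 2.33, and 0.877 CPM in the same WT males and 0.860, 1.27, 0.283, and 0.988 CPM in the *Kdm5c*-KO males. The highest value belonged to WT male 7D and the lowest to *Kdm5c*-KO male 2E, which had 7 counts. The log2 fold change was -0.66 with an interval of -1.40 to 0.09 (edgeR q = 0.375), and it moved to -0.28 without WT male 7D and to -0.37 without *Kdm5c*-KO male 2E.

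*Junb* was 25.5, 24.4, 24.4, and 20.0 CPM in WT males and 21.7, 23.7, 18.1, and 17.1 CPM in *Kdm5c*-KO males. The lowest WT male was the letter E animal, and so were the 2 lowest *Kdm5c*-KO males. The log2 fold change was -0.23 (SE 0.14, edgeR q = 0.429). *Jun* (ENSMUSG00000052684, chromosome 4, 95049036 to 95052222) had means of 56.4 ± 2.92 and 57.6 ± 2.12 CPM (SD, n = 4) and a log2 fold change of 0.03, with an interval of -0.08 to 0.14 (edgeR q = 0.845).

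*Egr1* was 48.0, 41.8, 47.6, and 40.2 CPM in WT males 2D, 5D, 7D, and 1E (44.4 ± 3.98, SD, n = 4). In *Kdm5c*-KO males 4D, 6D, 2E, and 3E it was 39.9, 40.7, 30.6, and 32.5 CPM (35.9 ± 5.13). The groups overlapped, since the WT male 1E lay below the *Kdm5c*-KO male 6D. Within each letter all *Kdm5c*-KO males were below all WT males, but letter E holds only 1 WT male. How many of all genes have that order within letters was not computed. The log2 fold change was -0.31 (SE 0.14, interval -0.60 to -0.02, edgeR q = 0.276).

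*Arc* was 13.0, 10.7, 13.9, and 11.2 CPM in WT males (12.2 ± 1.49, SD, n = 4) and 9.62, 9.80, 7.56, and 8.08 CPM in *Kdm5c*-KO males (8.76 ± 1.12). Every *Kdm5c*-KO male was below every WT male. Of all genes tested, 8.91% did not overlap between these groups in either direction. The log2 fold change was -0.48 (SE 0.21, interval -0.91 to -0.05, edgeR q = 0.253).

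The other members were near WT or variable. *Npas4* was 7.21, 4.17, 5.65, and 7.11 CPM in WT males against 5.28, 3.90, 9.54, and 9.10 CPM in *Kdm5c*-KO males (log2 fold change 0.21, interval -0.26 to 0.69, edgeR q = 0.707). This value was 0.08 with letter as a term, -0.29 within letter D, and 0.39 within letter E. *Egr2* (ENSMUSG00000037868, chromosome 10, 67534469 to 67542188), a relative of *Egr1* that is also needed for myelination by Schwann cells, had a log2 fold change of -0.09 (edgeR q = 0.884). Its locus overlaps the gene *Gm32255*, which makes its counts uncertain, since the strand setting of the counting is not given in the sources used here. *Nr4a1* (ENSMUSG00000023034, chromosome 15, 101253902 to 101274795), an orphan nuclear receptor, had 0.03 (-0.16 to 0.21, q = 0.921), and *Ier2* (ENSMUSG00000053560, chromosome 8, 84661331 to 84662852), a nuclear protein of the growth factor response, -0.04 (-0.27 to 0.19, q = 0.904).

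The letter is spread unevenly over these groups, with 1 letter E animal among the WT males and 2 among the *Kdm5c*-KO males, so the comparison was repeated with letter in the fit. The fold change of *Egr1* shrank from -0.31 to -0.21, and its standard error from 0.14 to 0.07, so that *Egr1* passed (edgeR q = 0.0793), 1 of 10 members against 8.22% of all genes. *Arc* went from -0.48 to -0.35 (q = 0.15), *Junb* from -0.23 to -0.14 (q = 0.377), and *Fosb* from -0.66 to -0.54 (q = 0.44). Within letter D alone, *Egr1* differed by -0.17 (q = 0.318) and *Arc* by -0.36 (q = 0.214), and within letter E alone, with 1 WT male, by -0.35 (q = 0.0838, 1 of 10 members against 2.15% of all genes) and -0.52 (q = 0.301).

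**Figure D4:**
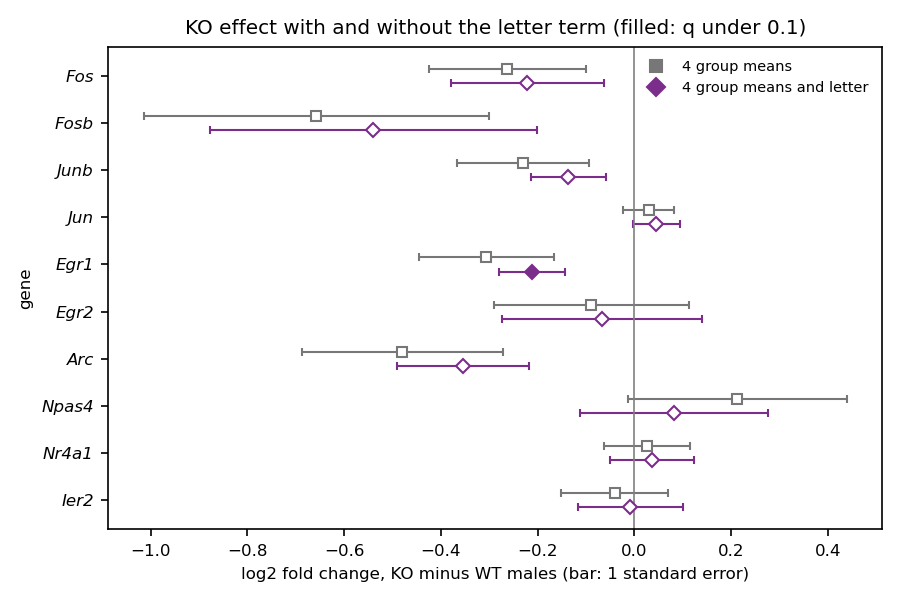
Log2 fold changes of *Kdm5c*-KO against WT males (x axis) with bars of 1 SE, from the fit of the 4 group means (grey squares) and with letter added (purple diamonds). The one filled point, *Egr1* with letter in the fit, passed q under 0.1, at a smaller fold change than without letter (-0.21 against -0.31).

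The call for *Egr1* and *Arc* in *Kdm5c*-KO males thus depended on the fit. With only the 8 males in the fit, *Arc* passed (q = 0.056, against 3.77% of all genes) and *Egr1* did not (q = 0.151), and without the filter on low counts both did (q = 0.0113 and 0.00954, against 3.62%). Their direction was the same in every alternative, over a range of -0.54 to -0.35 for *Arc* and -0.37 to -0.17 for *Egr1*. Other cell markers differed between these groups too: *Ttr* was 0.277 to 202 CPM in WT and 1.59 to 2.21 CPM in *Kdm5c*-KO males (edgeR q = 0.0643), *Aqp1* 0.762 to 3.48 against 0.323 to 0.637 CPM (q = 0.0642), and the globin gene *Hba-a1* 43.3 to 56.9 against 27.5 to 39.3 CPM (q = 0.00131). Their part in the values of *Egr1* and *Arc* was not tested.

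In *Kdm5c*-HET females, which keep 1 intact copy of the gene, no member passed against WT females (0 of 10, against 0.509% of all genes tested), in edgeR or in DESeq2. None had an unadjusted p under 0.05, which 6.49% of all genes had. The fold changes ranged from -0.38 to 0.25 with a median of -0.11 (all genes -0.000803), 9 members were below 0, and no member separated the groups, which 4.47% of all genes did.

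*Egr2* had the smallest p among them. It was 3.15, 2.71, 2.96, and 2.10 CPM in WT females 1D, 3D, 4E, and 5E, and 2.01, 2.09, 2.02, and 2.29 CPM in *Kdm5c*-HET females 9D, 6E, 8E, and 9E. All but WT female 5E among the WT animals were above every *Kdm5c*-HET female. The log2 fold change was -0.38 (SE 0.20, interval -0.81 to 0.04, edgeR q = 0.859).

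*Ier2* was 8.49, 8.49, 7.25, and 7.97 CPM in WT females and 8.30, 7.07, 6.66, and 6.10 CPM in *Kdm5c*-HET females. The highest *Kdm5c*-HET animal was 9D, the only one of letter D. The log2 fold change was -0.20 (SE 0.11, edgeR q = 0.895), and it was -0.03 at the smallest among the alternatives.

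*Egr1* was 50.9, 47.9, 32.6, and 30.9 CPM in WT females and 44.6, 33.9, 34.9, and 34.8 CPM in *Kdm5c*-HET females. In both groups the letter D animals were the high ones, and the spread of the WT females (40.6 ± 10.3, SD, n = 4) was more than the difference from the *Kdm5c*-HET females (37.0 ± 5.08). *Arc* had the same order, with 13.7, 12.02, 8.63, and 6.00 CPM in WT females and 12.6, 6.67, 6.94, and 8.77 CPM in *Kdm5c*-HET females. The log2 fold changes were -0.14 (-0.43 to 0.15, edgeR q = 0.977) for *Egr1* and -0.22 (-0.65 to 0.22, q = 0.976) for *Arc*. With letter as a term they were -0.02 and -0.07, within letter D -0.15 and -0.03, and within letter E 0.12 and 0.02.

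The remaining members had log2 fold changes of -0.11 (*Fos*, interval -0.45 to 0.24), -0.08 (*Fosb*, -0.83 to 0.67), -0.11 (*Junb*, -0.40 to 0.18), -0.01 (*Jun*, -0.12 to 0.10), 0.25 (*Npas4*, -0.21 to 0.72), and -0.01 (*Nr4a1*, -0.19 to 0.18), with edgeR q from 0.968 to 0.999.

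The difference between *Kdm5c*-KO and WT males was set against that between *Kdm5c*-HET and WT females, as the interaction of sex and genotype. The loss is complete in these males and partial in these females, so sex and the extent of the loss cannot be told apart. No member passed (0 of 10, against 0.0392% of all genes tested), and none had an unadjusted p under 0.05 (6.37% of all genes) or was called by DESeq2. The differences between the male and female fold changes ranged from -0.58 for *Fosb* (interval -1.63 to 0.48) to 0.29 for *Egr2* (-0.30 to 0.89). For *Arc* the difference was -0.26 (-0.88 to 0.35), and for *Egr1* -0.17 (-0.58 to 0.24). All 10 intervals include 0. The values differed between fits of a single letter. Within letter D they were -0.02 for *Egr1*, -0.33 for *Arc*, and -0.87 for *Npas4*, and within letter E -0.47, -0.54, and 0.34, against -0.04 for *Npas4* over all animals. None passed in these fits (edgeR q = 0.147 to 0.992).

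WT females and WT males were also compared. These animals are the controls of the genotype comparisons, so the results are not independent of those above. No member passed in edgeR (0 of 10, against 5% of all genes tested). DESeq2 called 0 of the 5 members to which it gave an adjusted p-value (*Junb*, *Jun*, *Egr1*, *Arc*, and *Nr4a1*) and gave none to the other 5. In edgeR, 1 member had an unadjusted p under 0.05, against 18.1% of all genes. That member was *Junb*, at 21.5, 22.6, 15.7, and 15.8 CPM in WT females 1D, 3D, 4E, and 5E and 25.5, 24.4, 24.4, and 20.0 CPM in WT males 2D, 5D, 7D, and 1E. The groups overlapped, since WT females 1D and 3D were above WT male 1E. All females were below the 3 letter D males, and both letter E females were below the only letter E male. How many of all genes have that order was not computed. The log2 difference was -0.31 (SE 0.14, interval -0.60 to -0.03, edgeR q = 0.226). With letter in the fit it was -0.23 (SE 0.08) and passed (q = 0.0785, 1 of 10 members against 9.4% of all genes), as it did without the filter on low counts (q = 0.0376, against 3.67%). In the same comparison, *Hba-a1* (38.6 ± 2.44 against 51.0 ± 6.71 CPM, SD, n = 4, log2 difference -0.40, edgeR q = 0.0417), *Hba-a2* (-0.54, q = 0.0519), and *Emx1* (-0.24, q = 0.0823) were also lower in WT females, and their part in the value of *Junb* was not tested.

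*Fos* was lower in every WT female (3.96, 4.69, 3.92, and 3.90 CPM) than in every WT male (lowest 4.89 CPM), an absence of overlap found in 10.6% of all genes in either direction. The log2 difference of -0.31 did not pass (SE 0.16, edgeR q = 0.325). *Nr4a1* was 21.8, 22.6, 23.2, and 18.4 CPM in WT females and 20.7, 19.1, 17.7, and 19.1 CPM in WT males, with a difference of 0.17 (SE 0.09, q = 0.325). The rest lay between -0.38 (*Fosb*) and 0.14 (*Npas4*).

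Covariation of the members over the 16 animals was described with *Fos* as the reference. On log2 CPM, Pearson's r with *Fos* was 0.54 for *Arc*, 0.53 for *Egr1*, 0.52 for *Fosb*, and 0.45 for *Junb* (permutation test, Benjamini-Hochberg adjusted over the 9 pairs, 0.11, 0.11, 0.11, and 0.176). Spearman's rho was 0.59, 0.57, 0.61, and 0.60 (adjusted p = 0.0544 for each, permutation test). Leaving out *Kdm5c*-HET females 6E and 9E, the 2 animals farthest from the median of *Fos*, gave r of 0.45, 0.48, 0.64, and 0.44.

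Inside each letter there are 8 animals, and no difference between the letters was tested. Within letter D, r with *Fos* was 0.79 for *Junb*, 0.55 for *Fosb*, 0.26 for *Arc*, and 0.13 for *Egr1*, and within letter E it was -0.20, 0.29, 0.31, and 0.34. With the group means taken away, r was 0.49 for *Fosb*, 0.40 for *Egr1*, 0.33 for *Arc*, and 0.12 for *Junb*. For *Arc* and *Egr1* both within-letter values were thus below the pooled ones, and for *Junb* they differed in sign. For *Jun* (r = 0.42) and *Ier2* (0.37) it rested on those same 2 animals, since r was 0.03 and -0.09 without them. *Egr2* (0.12), *Nr4a1* (-0.24), and *Npas4* (-0.26) had adjusted p from 0.405 to 0.662 in the permutation test.

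*Egr1* and *Arc* were also compared within each letter, in a description added after the data were seen. Group means were not taken away in these correlations, so differences between groups enter them. In the 8 letter D animals r was 0.92 (exact permutation test, p = 0.00203, 0.0122 after adjustment over 6 such relations) and rho 0.81 (exact adjusted p = 0.131). Without the 2 animals farthest from the median of *Egr1*, r was 0.81. These were *Kdm5c*-KO males 4D and 6D, the lowest letter D animals for both genes. In the 8 letter E animals r was 0.71 (exact adjusted p = 0.149) and 0.36 without the 2 farthest, and rho was 0.48 (exact adjusted p = 0.729). For *Junb*, r was 0.02 and 0.34 with *Egr1* in letters D and E, and 0.05 and 0.42 with *Arc*, with exact adjusted p of at least 0.6. No difference between these correlations was tested, and 8 animals leave each of them imprecise.

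**Figure D5:**
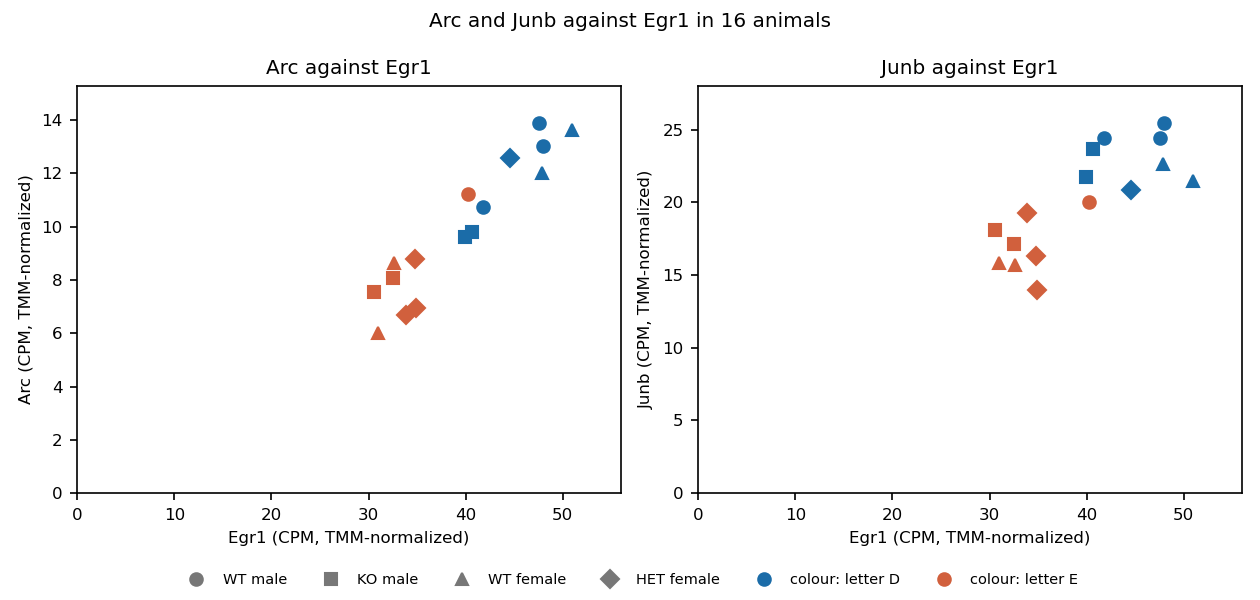
CPM of *Arc* (left) and *Junb* (right) against CPM of *Egr1* in 16 animals, with both axes from 0; colour marks the letter (blue D, orange E) and shape the group. Inside the blue points *Arc* rises with *Egr1* (r = 0.92 on log2 CPM), and *Junb* separates the colours, with r of 0.02 inside the blue and 0.34 inside the orange points.

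The genes most like *Fos* over the 16 animals, members left out, had r from 0.76 to 0.81 (10 genes). Only *Rrp7a* (r = 0.77), a gene for a ribosomal RNA processing factor, could be named, and the gene at the top was ENSMUSG00000033405 (r = 0.81). Among all genes tested, the r of *Arc* with *Fos* lay at the 97.3rd percentile, *Egr1* at the 96.9th, *Fosb* at the 96.6th, *Junb* at the 93.0th, and *Npas4* at the 23.1st.

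Of 96 genes in the fixed lists of other immediate early genes, later activity-regulated genes, upstream signalling genes, and heat shock genes, 10 could be named. Their names come from the study's list of genes changed in these samples, so their calls are not independent evidence, and no count over the lists is given. Among the other immediate early genes, *Ppp1r15a*, which ends the stress-induced block of translation, fell in *Kdm5c*-KO males (-0.29, edgeR q = 0.0615) and in letter E (-0.16, q = 0.0371). *Ier5* fell in *Kdm5c*-KO males (-0.18, q = 0.0928), and *Klf6*, a zinc-finger factor, rose there (0.17, q = 0.0511) and in letter E (0.08, q = 0.0427). The cell cycle inhibitor gene *Cdkn1a*, from the list of later genes, rose in *Kdm5c*-KO males (0.48, q = 0.00618). Of the upstream genes, *Grin2a*, an NMDA receptor subunit, fell in letter E (-0.26, q = 0.000105), and the kinase gene *Map2k2* fell in *Kdm5c*-KO males (-0.12, q = 0.0811) and was lower in WT females than in WT males (-0.13, q = 0.0763).

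Heat shock genes, which respond to stress and share some triggers with immediate early genes, went in both directions in *Kdm5c*-KO males. *Hspa1a* (1.08, edgeR q = 0.00913) and *Hspa1b* (1.51, q = 8.56e-05) rose, but they are near-identical copies, so that their uniquely mapped counts are uncertain, and *Hspb1* rose as well (0.86, q = 0.0928). *Hsph1* fell in *Kdm5c*-KO males (-0.34, q = 1.37e-05) and in *Kdm5c*-HET females (-0.18, q = 0.0511). None of these 4 genes passed for the letter (q = 0.381 to 0.943).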

How the data were processed

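The authors made poly(A)-enriched, directional libraries, mapped paired-end reads to mm10 with STAR 2.5.3a, removed duplicates, kept uniquely mapped reads, and deposited unnormalized counts per Ensembl gene from FeatureCounts (Subread 1.5.0), with 1 column per animal and 0 columns left unused. The strand setting of the counting is not given in the sources used here. The sources name 4 animals per genotype and a single batch of RNA isolation and sequencing, and do not map litters to animals. Within groups, every pair of animals differed by more than sampling noise (chi-square per gene 2.78 to 13.9), so each counted as 1 replicate.

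The analysis used edgeR 4.0.16 in R 4.3.3 (filterByExpr, TMM, glmQLFit, glmQLFTest). A single fit of the 16 animals held a mean for each group, and the letter was tested beside these means. Benjamini-Hochberg adjustment ran over all genes tested, with a threshold of q under 0.1. CPM are TMM-normalized, and log2 CPM used a prior count of 2. Intervals are 95% intervals of the fit. Correlations used 100000 permutations, or all permutations within a letter. The scripts were tested on simulated data. With DESeq2 1.42.0, its size factors, no filter, at least 10 counts, a prior count of 0.5, a threshold of 0.05, single-sex and single-letter fits, letter as a term, and each animal left out, the tests were repeated.

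The rule for the members holds identifiers and no measured values, but the members and lists were chosen with earlier results of these data known. All 10 members are described in every comparison, and of each other list up to 5 genes with the smallest q under 0.1, besides the 10 genes most like *Fos*. Symbols of other genes come from the study's supplementary tables (1023 genes with the members), and positions from RefSeq (GRCm38.p6) by symbol. *Kdm5c* is not paired with an identifier there and is not analysed here, nor are sequences. Some marker results are not reported here.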

Additional observations from a re-analysis of the deposited data

Results flagged for a closer look

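A single animal stood apart from the other 3 of its group, by the 95% limit of Dixon's gap test, for 2 of the 40 pairs of a member and a group, which is as many as that limit gives by chance (2). *Fos* in WT female 3D was 4.69 CPM, against 3.90 to 3.96 CPM in the other 3 WT females. *Egr1* in *Kdm5c*-HET female 9D was 44.6 CPM, against 33.9 to 34.9 CPM in the other 3, and 9D is the only letter D animal of that group.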

How the results depend on the processing

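The count of members called in *Kdm5c*-KO males was 0 in the fit of the 4 group means, 2 (*Egr1* and *Arc*) without a filter on low counts, 1 (*Egr1*) with letter as a term and within letter E, and 1 (*Arc*) in males only. For WT females against WT males it was 0, and 1 (*Junb*) without a filter and with letter as a term. The 4219 genes called for the letter became 1930 in males only and 2423 in females only, where *Arc* (males, q = 0.184) and *Npas4* (females, q = 0.843) were not called. For *Egr1*, *Junb*, and *Arc* the letter call held in all 16 fits without an animal, with q of at most 0.00822. Fits within a letter hold 1 WT male (E) or 1 *Kdm5c*-HET female (D), assumed to vary like the other groups. With the group means taken away, Pearson's r with *Fos* moved to 0.12 for *Junb* and 0.33 for *Arc*. A minimum of 10 counts in every animal left out *Fosb*.

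Values that changed sign were near 0 or uncalled, and the cause was not tested. In *Kdm5c*-HET females these were *Fosb* (0.0274), *Jun* (0.00408), and *Nr4a1* (0.00434) with letter as a term, *Fos* (0.0774), *Fosb* (0.21), *Jun* (0.11), and *Nr4a1* (0.0114) within D, and *Junb* (0.0640), *Egr1* (0.12), *Arc* (0.0235), and *Nr4a1* (0.0204) within E. In *Kdm5c*-KO males they were *Npas4* (-0.29) within D, and *Egr2* (0.0151) and *Ier2* (0.0756) within E. For the interaction they were *Jun* (-0.0597) and *Ier2* (-0.0603) within D and *Npas4* (0.34) within E. For WT females against WT males they were *Egr1* (0.11) and *Arc* (0.0322) within D and *Fosb* (0.22) within E, and for the letter *Nr4a1* in males only (0.0107) and without group means (0.00439).

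Leaving out each animal in turn changed the sign of some small values. In *Kdm5c*-HET females, *Fos* ranged from -0.23 to 0.00305, *Fosb* from -0.21 to 0.0374, *Jun* from -0.0652 to 0.0116, and *Nr4a1* from -0.0751 to 0.0433. In *Kdm5c*-KO males, *Egr2* ranged from -0.26 to 0.10, *Ier2* from -0.10 to 0.0331, and *Nr4a1* from -0.0175 to 0.0758. For the interaction, *Npas4* ranged from -0.23 to 0.16 and *Nr4a1* from -0.0170 to 0.10. For WT females against WT males, *Egr2* ranged from -0.12 to 0.24, *Ier2* from -0.13 to 0.00452, and *Npas4* from -0.0130 to 0.24, and for the letter *Nr4a1* from -0.0729 to 0.00202. No paired analysis was possible because no numbers in the labels pair animals across the groups.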
